A study of Mus musculus with 6 samples.

Results

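Immunity-related GTPases are large GTP-binding proteins that mouse cells make in response to interferons. They gather on the membrane of vacuoles that hold intracellular parasites or bacteria, such as Toxoplasma gondii, and help to break that membrane. A few regulatory members on chromosome 11 (Irgm1, Irgm2 and Igtp) keep the effector members inactive on the cell's own membranes. Iigp1, also called Irga6, is a well-studied effector, and it lies on chromosome 18 beside several related genes.

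The 5 genes described here are Iigp1, BC023105, Gm4841, F830016B08Rik and Gm4951. They were chosen by symbol from 23127 genes of the table, because earlier results of these data showed them silent or low without interferon gamma (IFNg) and most of them strongly expressed with it. Their IFNg against untreated values chose them. Those values are therefore given as a description, with no test.

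The study asked how intestinal stem cells answer IFNg, a cytokine of T cells and natural killer cells that signals through Jak kinases. The cells came from C57BL/6 small intestine and were gated for high Lgr5-GFP, a reporter driven by a gene of crypt stem cells. The treated group (IFNg 2, 6 and 10) received 1 ng/ml IFNg for 1.5 h in ENR, a medium named for EGF, Noggin and R-spondin1. The untreated group (untreated 1, 5 and 9) carries the same reporter and a 1.5 mark in its titles, and its label says no treatment. The numbers are the end numbers of the sample titles. The titles also tag IFNg 6 and untreated 5 as GFP1 and the other 4 libraries as GFP3, a tag that the labels do not explain. Whether the 3 libraries of a group came from separate animals is not stated, so the spread between them may be technical.

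IFNg libraries held 33103808 to 35959242 reads in genes, and untreated libraries 28508762 to 40224497. Levels are scaled counts, that is reads divided by 1 size factor per library, and 1 read was worth 0.853 to 1.05 scaled counts. All 10 stem cell markers were measured, with a summed level of 285857 to 290008 in IFNg libraries and 270272 to 306842 in untreated libraries. Most of each sum was Olfm4 (233547 ± 7644 with IFNg and 249440 ± 25867 untreated), so the sums say little about the other markers. Lgr5 stood at 4167 ± 1488 with IFNg and 5555 ± 2854 untreated. In the limma test described below 0 of 10 passed, and edgeR and DESeq2 also called 0 higher. Ascl2 (686 ± 158 with IFNg and 358 ± 297 untreated) and Smoc2 (21417 ± 8213 and 9741 ± 4113) were the 2 with an unadjusted limma p under 0.05. Of 13 leukocyte markers 10 were measured, with sums of 211 to 390 scaled counts in IFNg libraries and 302 to 379 in untreated libraries. None of these 10 was at 0 in every library. Ptprc, the pan-leukocyte marker CD45, stood at 29.3 ± 16.0 with IFNg and 27.0 ± 6.54 untreated (SD, n = 3 each), and Cd3e, a T cell receptor chain, was at 0 in IFNg 6 and in untreated 1. Paneth cell markers summed to 23500 to 197753 in IFNg libraries and 102774 to 352730 in untreated libraries, and their part in the results was not tested. In such bulk samples, fewer cells of a type and less RNA per cell cannot be told apart.

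In the GENCODE M21 annotation (GRCm38, the assembly also called mm10), the cluster spans 231 kb of chromosome 18. Gm4951 runs from 60212080 to 60247820 on the plus strand and Gm4841 from 60268305 to 60273272 on the minus strand. F830016B08Rik follows from 60293380 to 60303016, Iigp1 from 60376027 to 60392634 and BC023105 from 60441765 to 60442980, all on the plus strand. BC023105 is annotated as a processed pseudogene and the other 4 as protein-coding. The 4 coding genes shared an architecture, with the whole coding sequence in 1 of 2 or 3 exons. Their coding sequences had 413 codons in Iigp1, 417 in Gm4841, 416 in F830016B08Rik and 406 in Gm4951. In the BC023105 transcript of 1216 bases the longest open reading frame from an ATG had 218 codons.

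By sequence the cluster held 2 subgroups. Iigp1 and Gm4951 were identical at 88.5% of 1213 aligned bases of their coding sequences. BC023105 and Gm4841 were identical at 94.5% of 1214 bases, and F830016B08Rik matched them at 80.9% of 1170 and 80.0% of 1196 bases. Between the subgroups the best local alignments covered about 780 to 829 bases and had 75.2% to 76.6% identity. Each value is a best local alignment of coding sequences, or of the whole transcript for BC023105, so lengths differ between pairs.

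**Figure D1:**
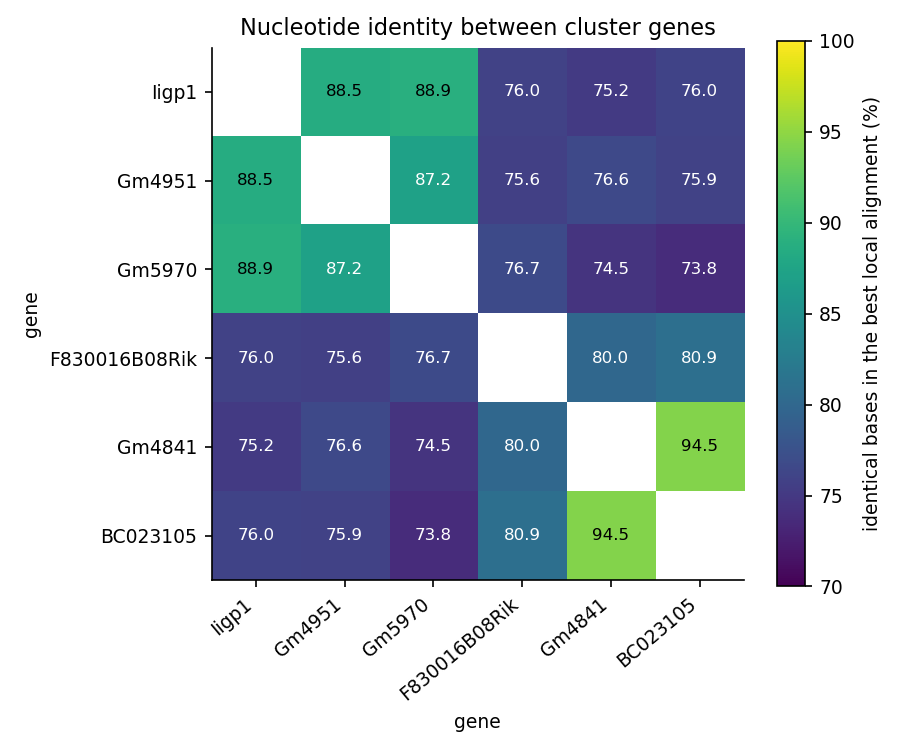
Percent identical bases in the best local nucleotide alignment between cluster genes, on a colour scale from 70 to 100%, with the pseudogene Gm5970 that lies between them. Iigp1, Gm4951 and Gm5970 form a block at 87.2% to 88.9%, and Gm4841 and BC023105 form the closest pair at 94.5%.

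Related genes can lose reads that align to several places, because the deposited table keeps such reads in a row of their own. Of the 50-base windows of Iigp1 transcripts, 1.69% also occurred in a transcript of another gene. The share was 1.75% for F830016B08Rik, 4.62% for Gm4951, 10.0% for Gm4841 and 14.7% for BC023105, whose shared windows were all shared with Gm4841. With 100-base windows no share exceeded 0.328% in any of the 5. The chromosome 11 relatives Tgtp1 and Tgtp2 had 81.2% and 86.6% of 50-base windows in common with other genes. Most windows of the cluster genes were their own; the read length is not given in the sources used here. None of the 5 shared exon bases with another annotated gene, though F830016B08Rik overlaps a lincRNA gene of the opposite strand.

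Iigp1 was the most abundant member with and without IFNg. It stood at 36601, 29328 and 14949 scaled counts in IFNg 2, 6 and 10, against 139, 126 and 47.4 in untreated 1, 5 and 9. The lowest IFNg library was above the highest untreated library by more than 2 orders of magnitude. The means were 26959 ± 11019 with IFNg and 104 ± 49.5 untreated (SD, n = 3 each), a 259-fold ratio and a difference of 8.05 on the log2(scaled count + 1) scale. By mean level over the 16095 tested genes, Iigp1 ranked 116 with IFNg and 11008 untreated.

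F830016B08Rik, named Ifgga4 among its RefSeq synonyms, was second by scaled counts. It had 1423, 1987 and 587 scaled counts in IFNg 2, 6 and 10, against 13.8, 34.8 and 11.3 in untreated 1, 5 and 9. The groups did not overlap, and all 3 untreated libraries held more than 3 reads of it, so it was low rather than silent without IFNg. The means were 1332 ± 704 with IFNg and 20.0 ± 12.9 untreated, a ratio of 66.8. That ratio was 50.4 without IFNg 6 and 106 without untreated 5. The log2 difference was 5.99.

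BC023105 had 564, 740 and 555 scaled counts in IFNg 2, 6 and 10, against 0.860, 0 and 0 in untreated 1, 5 and 9. This was 2085 reads over the IFNg libraries and 1 read over the untreated libraries, at or under the 3 reads that a count of 0 allows in each untreated library. The ratio of reads per depth was 1919, with an exact 95% interval of 344 to 75828 that covers counting error only, and without untreated 1 the untreated libraries held no read. IFNg libraries varied little here, at 620 ± 105 (SD, n = 3). The log2 difference of this annotated pseudogene was 8.97, above the 8.05 of Iigp1. With a pseudocount of 10 in place of 1 it was 5.92, below the 7.91 of Iigp1.

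Gm4841, the closest relative of BC023105 and listed as Ifgga3 among RefSeq synonyms, was also almost unread without IFNg. It had 257, 374 and 154 scaled counts in IFNg 2, 6 and 10, against 0.860, 0 and 2.06 in untreated 1, 5 and 9. Reads numbered 880 over the IFNg libraries and 3 over the untreated libraries. The ratio of reads per depth was 270 with an exact 95% interval of 92.1 to 1312, which also covers counting error only. Mean scaled counts differed 269-fold, or 179-fold without untreated 5 and 608-fold without untreated 9. Its log2 difference was 7.11.

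Gm4951, the closest relative of Iigp1 in coding sequence and Ifgga2 among RefSeq synonyms, stayed low in both groups. It had 31.8, 50.3 and 21.1 scaled counts in IFNg 2, 6 and 10, against 4.30, 5.27 and 18.5 in untreated 1, 5 and 9. The groups did not overlap, but IFNg 10 and untreated 9 were close. The means were 34.4 ± 14.8 with IFNg and 9.37 ± 7.96 untreated, and the log2 difference was 1.95. The ratio was 3.67-fold, or 2.82-fold without IFNg 6 and 7.19-fold without untreated 9. Between neighbouring end numbers the log2 difference was 2.63 for IFNg 2 and untreated 1 and 3.03 for IFNg 6 and untreated 5, and 0.17 for IFNg 10 and untreated 9.

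**Figure D2:**
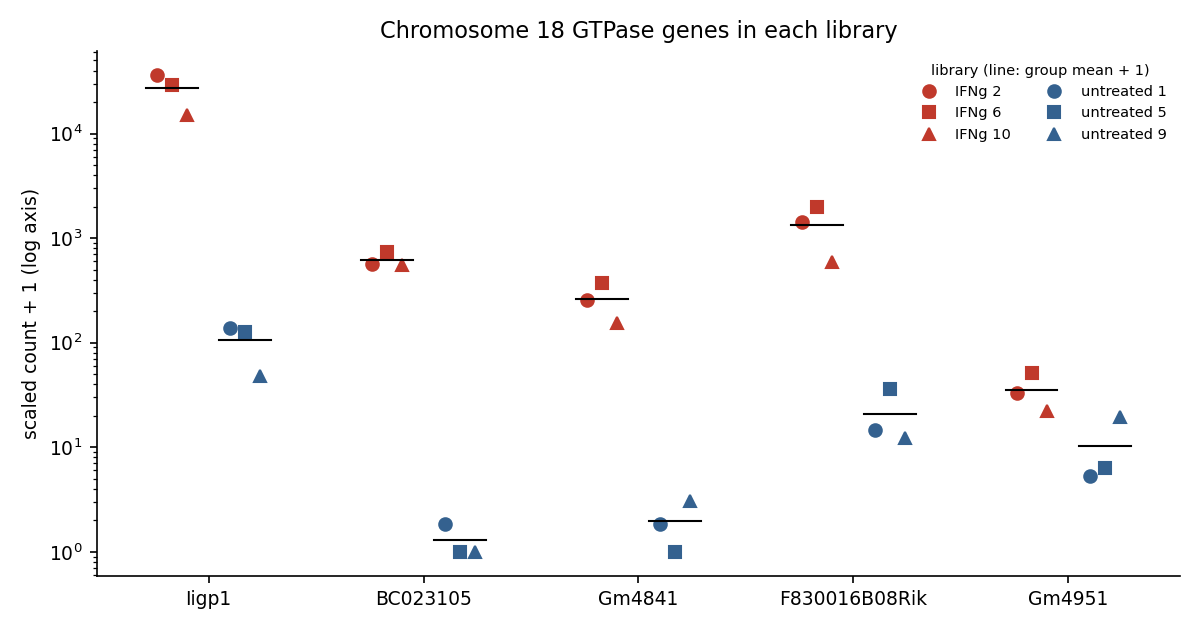
Scaled count + 1 (log axis) of each gene in the 3 IFNg libraries (red) and the 3 untreated libraries (blue), with lines at the group mean + 1. Iigp1 stands highest in both groups, BC023105 and Gm4841 are at or near 0 in untreated libraries, and the groups of Gm4951 lie close together.

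All 5 genes had a mean of at least 10 scaled counts over the 6 libraries and so entered the fit, but 3 of them (BC023105, Gm4841 and Gm4951) had untreated means under 10 and passed through their IFNg values. Every IFNg library was above every untreated library for 5 of 5 members, and for 8.13% of all tested genes, while 5.06% of tested genes had every IFNg library below every untreated library. Since the members were picked on this contrast, nothing is read from that count.

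The cluster as a whole took 0.122%, 0.106% and 0.0521% of the scaled counts in genes in IFNg 2, 6 and 10, against 0.000457%, 0.000554% and 0.000253% in untreated 1, 5 and 9. Iigp1 made up 94.1%, 90.3% and 91.9% of the cluster's scaled counts in IFNg 2, 6 and 10, against 87.5%, 75.9% and 59.7% in untreated 1, 5 and 9. F830016B08Rik made up 3.61% to 6.12% with IFNg and 8.70% to 20.9% untreated. BC023105 made up 1.45% to 3.41% with IFNg.

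Per kilobase of annotated exon, the order of levels with IFNg was Iigp1, BC023105, F830016B08Rik, Gm4841 and Gm4951. Iigp1 was at 4630 ± 1892 scaled counts per kb with IFNg and 17.9 ± 8.50 untreated. BC023105 was at 510 ± 86.0 per kb with IFNg and F830016B08Rik at 404 ± 214, and these 2 neighbours in the order overlapped between libraries. Gm4841 was at 92.1 ± 38.8 and Gm4951 at 13.0 ± 5.60 per kb with IFNg, and neither overlapped its neighbour above. Untreated, Iigp1, F830016B08Rik (6.05 ± 3.91 per kb) and Gm4951 (3.54 ± 3.01 per kb) overlapped in turn, and the other 2 genes were at or near 0. The exons of Iigp1 sum to 5823 bases over its annotated transcripts, so its level per kb depends on the length used. It was 11136 with the 2421 bases of 1 coding transcript, an alternative chosen after seeing the data.

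Among the 19 immunity-related GTPase genes listed here, which leave out the pseudogene Gm5970, levels were ranked per kb of summed exon length. Iigp1 had rank 3 with IFNg, after Irgm1 (17483 ± 1155) and Ifi47 (5081 ± 1465), and rank 9 untreated. The spread of Iigp1 overlapped those of Ifi47 and of Igtp (4430 ± 1492 per kb with IFNg). Irgm1 stood at 174 ± 18.7 per kb untreated and Ifi47 at 304 ± 102; both were above all cluster genes in every untreated library. The 5 cluster genes together took 14.2%, 14.2% and 9.62% of the scaled counts per kb of these 19 genes in IFNg 2, 6 and 10, against 3.69%, 3.60% and 2.86% in untreated 1, 5 and 9. The share of every IFNg library was above that of every untreated library. The members were picked on this contrast, so nothing is read from that. Rank and shares hold only for the summed exon lengths and for reads that aligned to 1 place. Tgtp1, Tgtp2 and 9930111J21Rik1 shared 81.2%, 86.6% and 83.2% of their 50-base windows with other genes, against 1.69% for Iigp1 and 0.379% for Irgm1. How many reads each gene lost in this way was not measured. The 11136 per kb of Iigp1 rests on the length of 1 transcript, which was not used for genes outside the cluster, so no rank follows from it.

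**Figure D3:**
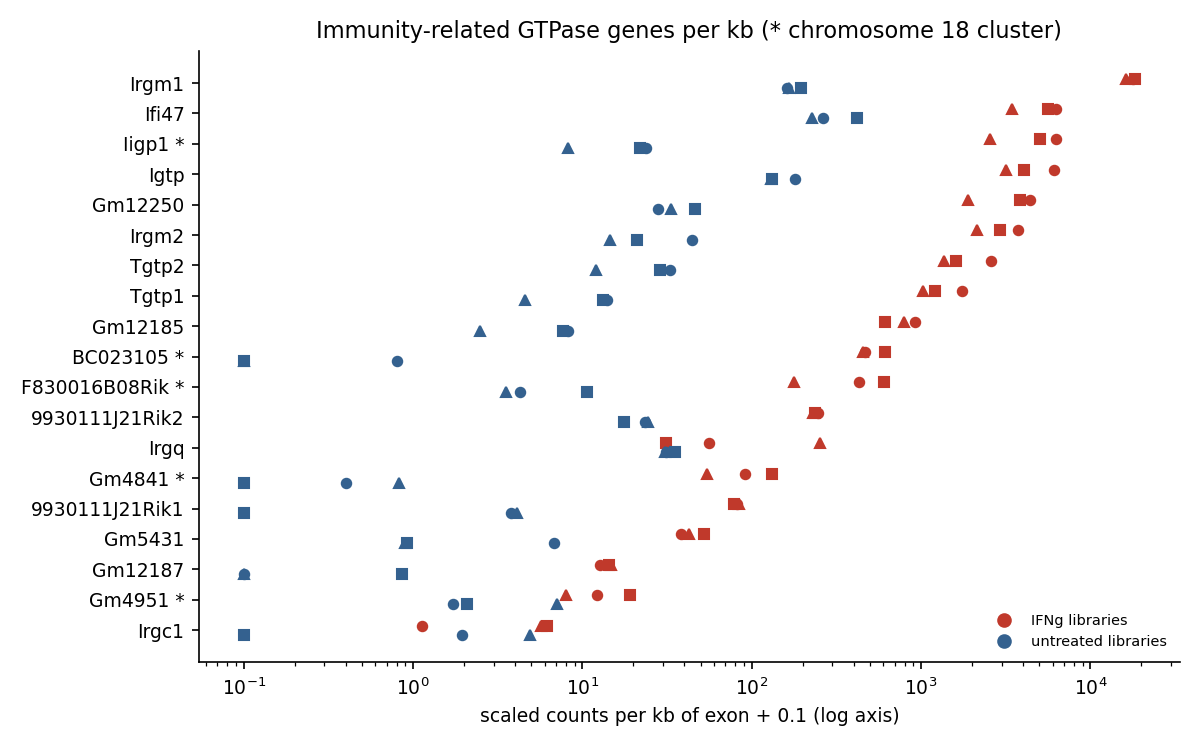
Scaled counts per kb of exon + 0.1 (log axis) for 19 immunity-related GTPase genes, ordered by the IFNg mean, with IFNg libraries in red and untreated libraries in blue and the cluster genes starred. By this length Iigp1 has rank 3 with IFNg while its untreated libraries lie at 8.14 to 23.8 per kb, well left of Irgm1 and Ifi47.

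The 3 IFNg libraries did not give the same level. IFNg 10 was the lowest of them for 5 of 5 cluster genes, where 34% of all tested genes had it lowest. Relative to the mean of the 3 libraries, IFNg 10 stood at 0.441 for F830016B08Rik, 0.554 for Iigp1, 0.587 for Gm4841, 0.612 for Gm4951 and 0.895 for BC023105. IFNg 6, the GFP1 library, was the highest for 4 of the 5, and IFNg 2 was the highest for Iigp1. Among other immunity-related GTPases IFNg 10 was lowest for 8 of 12 tested, and among guanylate-binding proteins for 5 of 8. It was also lowest for 30 of the 63 other genes that passed the limma test upwards. These genes share libraries, so the counts are a description.

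**Figure D4:**
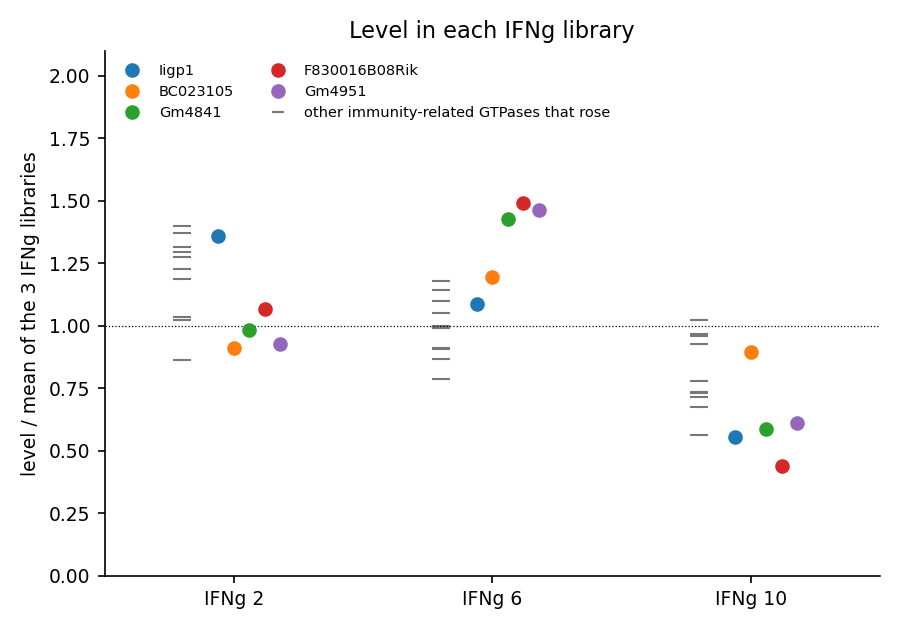
Level of each cluster gene (coloured points) in each IFNg library divided by the mean of the 3 IFNg libraries, with the 10 other immunity-related GTPases that rose as dashes. All 5 cluster genes lie below 1 in IFNg 10, from 0.441 to 0.895, and above 1 in IFNg 6.

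The title tags were compared by value. For Iigp1 the log2 difference between IFNg and untreated was 7.85 with GFP1 and 8.15 with GFP3, and for F830016B08Rik it was 5.80 with GFP1 and 6.08 with GFP3. It was 9.53 with GFP1 and 8.68 with GFP3 for BC023105, 8.55 and 6.39 for Gm4841, and 3.03 and 1.40 for Gm4951, which all rest on few untreated reads. A treatment by tag term in limma, with 1 GFP1 library per group, called 0 of 16095 genes (0 in edgeR, 2117 at an unadjusted limma p under 0.05). This design therefore gives no verdict on whether the tags differ. The sign of the gap between the tags turned for Iigp1 and for F830016B08Rik without IFNg 2, and for Iigp1 also without untreated 9.

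The genes around the cluster were looked at by the same test across all genes, limma on log2(scaled count + 1) with Benjamini-Hochberg adjusted p under 0.05. In it 0.416% of 16095 tested genes (67) were higher with IFNg and 0.0124% (2) lower. On the recovered reads edgeR called 0.36% higher and DESeq2 2.84%. The 67 became 366 without untreated 5, 41 without IFNg 2 and 43 without IFNg 10. Of 20 neighbours, the nearest 10 on each side, 13 were tested, and 0 passed in limma, edgeR or DESeq2, with 2 at an unadjusted limma p under 0.05. Their median log2 difference was -0.22, and that of all tested genes was -0.08. Smim3, a small membrane protein gene 31.2 kb beyond BC023105, stood at 6760, 5762 and 6658 scaled counts in IFNg 2, 6 and 10, against 4172, 3731 and 4368 in untreated 1, 5 and 9. Its groups did not overlap, but its log2 difference of 0.64 ± 0.23 (SE) did not pass (limma adjusted p = 0.395). On the other side the nearest measured neighbour, Chsy3, an enzyme of chondroitin synthesis 676 kb from Gm4951, had 3.86 ± 5.11 scaled counts with IFNg and 0.687 ± 1.19 untreated and was too low to test. Isoc1, 1532 kb away and named after its values were seen, was the other neighbour at an unadjusted p under 0.05. It had 765, 772 and 2650 scaled counts in IFNg 2, 6 and 10, against 187, 733 and 220 in untreated 1, 5 and 9 (limma adjusted p = 0.346). Cd74, the invariant chain of MHC class II, lies 361 kb beyond the cluster and was also named after its values were seen. It stood at 46648 ± 26500 with IFNg and 64191 ± 37900 untreated (limma adjusted p = 0.893).

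Between the members the table held 2 further genes. Gm5970, a processed pseudogene within the span of Gm4951 with 88.9% identity to Iigp1, had 3, 0 and 4 reads in IFNg 2, 6 and 10, against 0, 0 and 0 in untreated 1, 5 and 9. Both groups were near the floor of 3 reads per library, so no difference was detectable at this depth. Gm6960, an annotated pseudogene between Iigp1 and BC023105, had 14.5, 22.2 and 13.2 scaled counts in IFNg 2, 6 and 10, against 18.9, 29.5 and 21.6 in untreated 1, 5 and 9, and its groups overlapped.

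**Figure D5:**
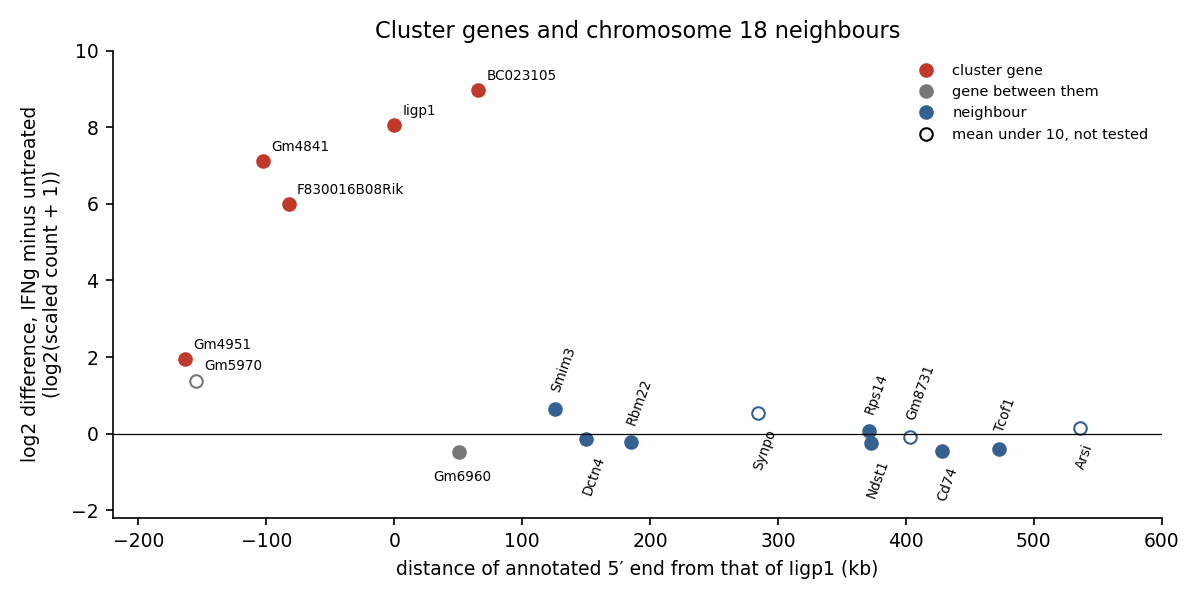
Log2 difference, IFNg minus untreated on the log2(scaled count + 1) scale, against the distance of each gene's annotated 5′ end from that of Iigp1 in kb. Cluster genes are red, genes between them grey, neighbours blue, and open circles had a mean under 10 scaled counts. Of the red points 4 lie between 5.99 and 8.97, Gm4951 lies at 1.95, and Smim3 lies at 0.64. The plotted range leaves out all 10 neighbours on the Gm4951 side, Isoc1 among them, so only neighbours beyond BC023105 are shown.

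Of the other immunity-related GTPases, which lie on chromosomes 11 and 7, 10 of 12 tested rose in limma (9 in edgeR, 11 in DESeq2) and 0 fell, with a median log2 difference of 6.03. Gm12185 rose by 7.12 ± 0.47 on the log2 scale (SE, limma adjusted p = 1.25e-04) and Tgtp1 by 7.05 ± 0.46 (1.25e-04), but both share sequence with other genes, so their values are uncertain. Irgm2, a regulatory member, rose by 6.89 ± 0.42 (1.12e-04), and shares exon bases with Igtp. Irgm1, the regulator that guards host membranes, rose by 6.65 ± 0.23 (6.72e-06). Irgq, a divergent family member, was at 687 ± 737 scaled counts with IFNg and 197 ± 15.4 untreated and did not pass (limma adjusted p = 0.695). The second that did not pass was 9930111J21Rik1 (limma adjusted p = 0.0656). Gm5431 passed at 0.0450 in limma and missed the threshold in edgeR (0.104), with neighbouring end numbers as a block (0.103) and with a pseudocount of 0.5 (0.0530). It was also lost without IFNg 2 (0.168), IFNg 6 (0.0813), IFNg 10 (0.205) or untreated 9 (0.159).

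Guanylate-binding proteins, which attack the same vacuoles, had 5 of 8 tested members that rose in limma (5 in edgeR, 6 in DESeq2). Of them 0 fell in limma, and the median log2 difference was 4.67. Gbp2 rose by 7.90 ± 0.38 on the log2 scale (limma adjusted p = 2.64e-05), Gbp7 by 6.85 ± 0.29 (1.82e-05), Gbp4 by 5.22 ± 0.81 (0.0347) and Gbp3 by 4.61 ± 0.30 (1.25e-04). Gbp4 missed the threshold without IFNg 2 (0.137), IFNg 6 (0.0603), IFNg 10 (0.132) or untreated 1 (0.115) and with neighbouring end numbers as a block (0.0539). Gbp9, Gbp8 and Gbp5 did not pass (limma adjusted p = 0.879, 0.886 and 0.107). Gbp5 did pass with the block (0.0386) and in DESeq2 (adjusted p = 0.00104), but not in edgeR (0.239). Of 5 very large and Mx GTPases 1 was tested, Mx2, and it did not pass (limma adjusted p = 0.540).

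In the IFNg signal list 6 of 17 rose in limma (5 in edgeR, 9 in DESeq2) and 0 fell, with a median of 1.22. Socs1, the feedback inhibitor of Jak kinases, rose by 7.34 ± 0.69, the transcription factor Irf1 by 5.07 ± 0.23 and the inhibitor Socs3 by 3.70 ± 0.35 on the log2 scale (limma adjusted p = 0.00124, 2.33e-05 and 0.00140). Stat2 rose by 3.11 ± 0.48 (0.0333), a call lost without IFNg 2 (0.128), IFNg 6 (0.0653), IFNg 10 (0.122) or untreated 9 (0.123), with the block (0.0691) and in edgeR (0.0556). The receptor chain Ifngr1, Stat3 and the kinase Jak1 did not pass (limma adjusted p = 0.561, 0.296 and 0.866). Stat3 did pass in DESeq2 (adjusted p = 0.0499), but not in edgeR (0.356).

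A list of autophagy and ubiquitin genes, drawn up around the loading of these GTPases onto vacuoles, gave 1 of 15 that rose and 0 that fell. The median log2 difference was -0.10, and 4 of the 15 had an unadjusted limma p under 0.05. Among these 4, Atg16l1 (2486 ± 502 with IFNg and 1153 ± 431 untreated) and Atg3 (1421 ± 406 and 637 ± 282) were named after their values were seen. Their groups did not overlap, but they did not pass (limma adjusted p = 0.307 and 0.322). Trim21, an antibody-binding ubiquitin ligase, rose by 2.33 ± 0.32 (limma adjusted p = 0.0168), a call lost without IFNg 2 (0.127), IFNg 10 (0.0557) or untreated 9 (0.0874). The autophagy adaptor Sqstm1 was at 37758 ± 9589 scaled counts with IFNg and 43540 ± 10402 untreated, and the adaptor Tax1bp1 and the membrane marker Map1lc3b did not pass either (limma adjusted p = 0.920, 0.955 and 0.902).

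BC023105 and Gm4841 were also compared with other genes that had almost no reads in untreated libraries. With at most 3 reads over the untreated libraries and at least 100 over the IFNg libraries there were 6 such genes, of 1293 with at most 3 untreated reads, and 0 in the opposite direction. BC023105 and Gm4841 led the list by IFNg reads, but both were chosen on this contrast, so nothing is read from their place. After them came the apolipoprotein L gene Apol10b (295 reads with IFNg and 1 untreated) and the metalloprotease gene Adam33 (163 and 3). The DNA sensor family gene Ifi204 had 119 reads with IFNg and 0 untreated, and Ly6i, a gene of the Ly6 surface antigen family, had 101 and 3. The number was 11 without untreated 5 and 10 without untreated 9.

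Over the 6 libraries the genes whose log2 values followed those of Iigp1 most closely were Tgtp2 (Pearson r = 0.998), Tgtp1 (0.998), Gbp6 (0.997), Irf8 (0.997) and Gbp3 (0.997). The libraries fall into 2 groups far apart, so r mostly reflects the group difference, and 89 genes outside the cluster had r above 0.95. Tgtp2, Tgtp1 and Gbp3 had the library order of Iigp1 in both groups, with IFNg 2 highest and IFNg 10 lowest and with untreated 1 highest and untreated 9 lowest. Gbp6 differed from it in the untreated order and Irf8 in the IFNg order.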

How the data were processed

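RNA of 6 libraries was measured. The unit is a signal: read counts per gene that the authors scaled by a size factor for each library, per the file name. Per the submitters' processing notes, which give no roles, the tools were DESeq 1.22.1, HTSeq 0.5.3, STAR 2.5.0a and cutadapt 1.6, with the mm10 build. The sources used here do not give the annotation, strand setting or read length. The 4 rows of reads given to no gene were left out. They held 18.5% to 25.0% (not uniquely aligned), 9.67% to 14.2% (no gene), 8.83% to 15.4% (not aligned) and 0.948% to 1.20% (ambiguous) of each library.

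All 138762 values were whole multiples of 1 step per library (100% within 0.01 of a read), which gave back the reads. Counts of reads were used for intervals, floors of 3 reads, edgeR 4.0.16 (quasi-likelihood, TMM) and DESeq2 1.42.0, which called 58 and 457 genes higher.

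The main test was limma (version 3.58.1, R 4.3.3), two-sided, with trend and robust options. It used log2(scaled count + 1) of the 16095 genes whose mean reached 10, and Benjamini-Hochberg adjusted p under 0.05 was a call. On simulated data for this comparison, with 15726 genes tested, recovery among 50 genes per fold size was 8% at 2-fold, 70% at 4-fold and 98% at 8-fold, with 6 false calls. The changed genes were drawn only from genes with means well above the filter, so recovery of low genes was not measured.

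The members and gene lists were chosen with earlier results of these data known. Named genes are the members, per list the 4 largest that pass and are higher in each pair and up to 3 that do not pass, the nearest neighbour on each side, silent genes switched on, and the 5 most like Iigp1. Of 23127 gene IDs, 23006 matched GENCODE M21 without the version number. Promoter and protein sequences were not analysed here.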

Additional observations from a re-analysis of the deposited data

How the results depend on the processing

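The direction of all 5 members' differences held under every alternative tried. Leaving out 1 library gave log2 differences of 7.56 to 8.43 for Iigp1, 8.82 to 9.26 for BC023105, 6.69 to 7.50 for Gm4841, 5.61 to 6.49 for F830016B08Rik and 1.59 to 2.53 for Gm4951. BC023105, with 1 untreated read, moved to 5.92 with a pseudocount of 10, 9.78 with 0.5, 10.43 in edgeR and 10.82 in DESeq2, and Gm4841 moved to 4.55 with a pseudocount of 10. The level of Iigp1 per kb was 11136 with 1 transcript's length.

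The gap between tags (GFP1 minus GFP3) had leave-one-out ranges of -1.07 to 0.46 for Iigp1, 0.40 to 1.30 for BC023105, 1.79 to 2.53 for Gm4841, -0.92 to 0.35 for F830016B08Rik and 0.69 to 2.57 for Gm4951. It moved further with other settings: for BC023105 it was 0.85, against 2.79 in edgeR and 0.46 with a pseudocount of 10, for Gm4841 it was 2.16, against 4.64 and 1.07, and for F830016B08Rik it turned to 0.12 with a pseudocount of 10.

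The number of higher genes was 41 to 366 when 1 library was left out (41 without IFNg 2, 43 without IFNg 10, 366 without untreated 5), 457 in DESeq2, 1337 in the GFP3 libraries alone and 108 with the tag as a block. Lower genes numbered 1 to 3 when 1 library was left out, 8 in DESeq2, 11 in the GFP3 libraries, 1 with a pseudocount of 0.5 and 1 with the replicate block. When 1 library was left out, 9 to 11 immunity-related GTPases, 4 to 6 guanylate-binding proteins, 5 to 7 signal genes, 0 to 1 loading genes, 0 very large and Mx GTPases and 0 neighbours were higher. In the GFP3 libraries alone 10 signal genes, 4 loading genes and 1 neighbour were. Genes switched on numbered 4 to 11 when 1 library was left out, 1 with 0 untreated reads and 39 with at least 30 IFNg reads. Genes switched off numbered 0 to 1 and, with at least 30 untreated reads, 5. The causes were not tested.

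The replicate block took neighbouring end numbers as pairs. Libraries 5 and 6 deviated together from their group means (r = 0.303), as did 1 and 2 (0.404) and 9 and 10 (0.252). All other combinations of an untreated and an IFNg library had r of -0.284 to -0.0308. Deviations in a group sum to 0, so these values depend on each other. Libraries 5 and 6 also share the GFP1 tag, so pairing and tag cannot be told apart there. The pairing is thus a hint from the data and not from the labels. With the replicate block the higher genes numbered 74, and in the lists Gm5431, Gbp4 and Stat2 were lost, Gbp5 was gained and no other call changed. The smallest change that could be seen was limited by n = 3 and, for BC023105, Gm4841 and Gm4951, by read numbers.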
